A study of Xenopus laevis with 4 samples.

Results

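The genes described here are 5 early response and glucocorticoid-linked genes of Xenopus laevis: jun.L, cebpb.L, ddit4.S, errfi1.S and gadd45a.S. They were taken by gene symbol from 11303 genes that the platform annotation names through a probe set with 1 symbol. They were selected on the measured difference between the groups described below, so their own values in that comparison are a description, with no test. The 5 genes were read by 8 probe sets, 4 of them for gadd45a.S and 1 for each of the others. All 8 passed the filter on low signals, which removed the 25% of probe sets with the lowest mean log2 signal. The endings .L and .S mark the copies of a gene on the long and short subgenomes of this allotetraploid frog.

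Early response genes are transcribed within minutes of a growth factor, a stress or a hormone, without new protein synthesis. Many of their products are short-lived transcription factors or inhibitors that limit the signal that induced them. In mammals ddit4, errfi1 and cebpb are also known as direct targets of the glucocorticoid receptor, a hormone-activated transcription factor. In Xenopus ectoderm, fusions to the hormone-binding domain of that receptor are a standard way to hold an injected protein inactive until dexamethasone, a synthetic glucocorticoid, is added.

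RNA was measured in epithelial explants of presumptive ectoderm, or animal caps, on 4 one-colour Affymetrix arrays, 2 per group. Embryos of both groups received synthetic ICD mRNA at the 2-cell stage, and 1 of the groups was given MCI-HGR mRNA as well. ICD commonly stands for the Notch intracellular domain, MCI for multicilin, a nuclear regulator of multiciliated cells, and HGR for the glucocorticoid receptor's hormone-binding domain; the sample labels spell none of them out, though the study's title names multicilin. Caps were cut at stage 9 to 10 and cultured on fibronectin, dexamethasone was given to both groups at stage 11.5, and RNA was taken 5 h later, near stage 14. Both groups had the hormone and no array without it was analysed here, so the response to dexamethasone itself was not measured. The labels name no group with HGR alone, so multicilin and its fused hormone-binding domain cannot be told apart. Nothing in the labels says that replicates came from separate clutches, and none gives how many explants went on an array.

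The arrays with replicate number 1 are named array set 1 here and those with number 2 array set 2, so that a set holds 1 array of each group. The labels do not say that the number marks a shared clutch or day. Signals correlated more within a set (r = 0.973 and 0.971 on the log2 scale, across 24404 kept probe sets) than between arrays of 1 group (0.944 for ICD and 0.951 for MCI-HGR). Of 16 epidermal marker genes, 16 were above the highest tag control probe set on every array. Both MCI-HGR arrays lay above both ICD arrays for 2 of the 16, grhl3.L (1.62-fold) and grhl3.S (2.44-fold). They lay below for 2, tp63.S (2.61-fold lower) and tp63.L (2.02-fold lower). Of all genes with a kept probe set, 12.6% lay above in this way and 9.52% below. Of 14 multiciliated cell marker genes, 14 had both MCI-HGR arrays above both ICD arrays, as did 12.6% of all genes with a kept probe set. Of these markers, 3 (mcidas.S, tekt2.L and dnah9.S) were not above the tag controls on every array. The summed signal of the 14 markers was 6861 and 8126 in the ICD group and 24179 and 22655 in the MCI-HGR group. They include mcidas.S, a gene of multicilin, which read 9.7 and 17.1 with ICD alone and 384.2 and 141.5 with MCI-HGR. Whether its probe set reads the injected MCI-HGR mRNA was not tested. The 5' to 3' signal ratio of Dap, a control transcript, was 0.062 and 0.0646 with ICD alone but 0.0415 and 0.028 with MCI-HGR. The middle to 3' ratio of Xenopus actin was 0.640 and 0.652 with ICD alone and 0.569 and 0.401 with MCI-HGR. Some markers of other cell types separated by group too (of all genes, 12.6% lay above and 9.52% below). The counts above and below were 0 and 3 of 9 for neural crest and 1 and 1 of 13 for neural. For mesoderm and muscle they were 2 and 2 of 15, for ionocytes 1 and 0 of 8. Mucus and small secretory cells gave 2 and 0 of 7, endoderm 1 and 0 of 15. For blood and endothelium they were 1 and 0 of 11, and for cement gland 0 and 0 of 7. The multiciliated cell markers, the grhl3 and tp63 genes, these other markers and both ratios ran with the group beside every difference below. Their part in those differences was not tested. In such bulk samples, a change in the number of cells of a type and a change in RNA per cell cannot be told apart.

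The transcription factors are described first. jun.L encodes c-Jun, a subunit of the AP-1 transcription factor, which binds DNA as a dimer with Fos or another Jun protein. It gave signals of 37.4 and 20.4 in explants with ICD and 148.1 and 59.3 in those with MCI-HGR, in the order of array set 1 and array set 2. Both MCI-HGR arrays were above both ICD arrays, and set 1 was the higher of the sets in each group. The log2 difference was 1.76 ± 0.79 (SE, n = 2 per group), or 3.39-fold by the group means on the log2 scale, 3.96-fold in set 1 and 2.91-fold in set 2. Leaving out MCI-HGR replicate 1 brought the log2 difference to 1.102, and leaving out MCI-HGR replicate 2 to 2.42. The low ICD signal of 20.4 was above the highest tag control of its array, at 10, but close enough to it to limit the fold in set 2.

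cebpb.L encodes C/EBP beta, a leucine zipper factor of acute-phase, metabolic and stress responses. It gave signals of 124.7 and 19.9 with ICD alone and 306.2 and 273.3 with MCI-HGR. The groups did not overlap, but the ICD arrays differed from each other 6.27-fold, while the MCI-HGR arrays differed 1.12-fold. The log2 difference was 2.54 ± 1.33 (SE, n = 2 per group). In array set 1 it came to a 2.46-fold higher signal and in array set 2 to a 13.7-fold higher signal. The low ICD array of set 2 sets this size: without ICD replicate 2 the log2 difference was 1.21, and without ICD replicate 1 it was 3.86. That low signal of 19.9 was above the highest tag control of its array, at 10.

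Both inhibitors of growth signalling were higher by similar folds. ddit4.S encodes DDIT4 (REDD1), which restrains the growth kinase complex mTORC1 under stress and after glucocorticoids. It gave signals of 729.7 and 1074.2 in the ICD group and 1580.8 and 1923.6 in the MCI-HGR group, and the groups did not overlap. The log2 difference was 0.98 ± 0.31 (SE, n = 2 per group), 2.17-fold in set 1 and 1.79-fold in set 2. In each group the array of set 2 was the higher, the reverse of jun.L and cebpb.L.

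errfi1.S encodes ERRFI1 (MIG6), a feedback inhibitor of the EGF receptor family. It gave signals of 27.9 and 22 in explants with ICD and 47 and 56.2 in those with MCI-HGR. The groups did not overlap, and all 4 signals lay above the tag controls of their arrays, the highest of which read 9.2 to 13. The log2 difference was 1.05 ± 0.21 (SE, n = 2 per group), 1.68-fold in set 1 and 2.55-fold in set 2.

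The growth arrest gene gadd45a.S encodes GADD45A, a small stress protein that binds PCNA and the mitotic kinase CDK1. Its 4 probe sets pointed the same way but differed in size. Probe set Xl2.1519.3.S1_at read 1238.2 and 908.1 with ICD alone and 2840.1 and 1879.6 with MCI-HGR, a log2 difference of 1.12 ± 0.37 (SE, n = 2 per group). Probe set Xl2.47781.1.A1_at read 127.9 and 95.2 against 227.4 and 201.9, a log2 difference of 0.96 ± 0.23. These probe sets put the gene 2.18-fold and 1.94-fold higher.

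The other probe sets of gadd45a.S gave smaller differences. Probe set Xl2.1519.3.S1_s_at read 3752.5 and 3734.1 in the ICD group and 5501.1 and 4844.5 in the MCI-HGR group, a log2 difference of 0.46 ± 0.092 (SE, n = 2 per group). By its suffix it is of the Affymetrix type that can match transcripts of more than 1 gene. Probe set Xl2.29173.1.S1_at read 3644.1 and 3468.6 against 4290.2 and 4592.2, a log2 difference of 0.32 ± 0.061. By these the gene was 1.38-fold and 1.25-fold higher. In none of the 4 did the groups overlap. Probe-level values were not used here, so which of the probe sets reads the transcript best was not tested.

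**Figure D1:**
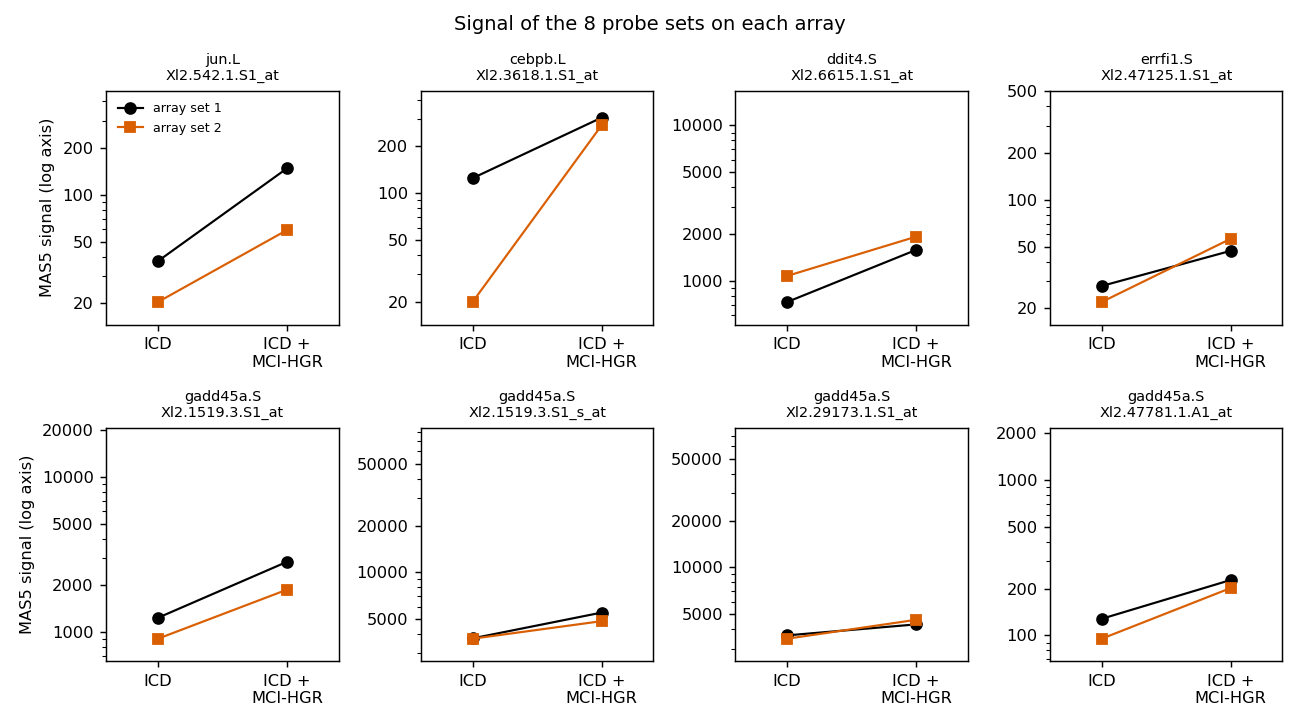
MAS5 signal (log axis, spanning the same 32-fold range in every panel) of the 8 probe sets on each of the 4 arrays, with a line joining the ICD array to the ICD with MCI-HGR array of the same array set. All 8 lines of each set slope upward; that of cebpb.L in set 2 is the steepest, from 19.9 to 273.3.

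Across the 8 probe sets the log2 difference ran from 0.32 to 2.54 with a median of 1.02. In 8 of 8 both MCI-HGR arrays lay above both ICD arrays, as they did in 11.5% of all kept probe sets. A signal at least 2-fold higher in both array sets was found for 3 of the 8, those of jun.L, cebpb.L and the first gadd45a.S probe set, and for 2.05% of all kept probe sets. Since the genes were proposed for this contrast, nothing is read from these shares. The within-set difference was larger in set 1 for 4 probe sets and larger in set 2 for the other 4. All 8 differences kept their direction under quantile normalization and median centring. An offset of 16 before log2 and the loss of any 1 array could not turn them, because the groups did not overlap.

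**Figure D2:**
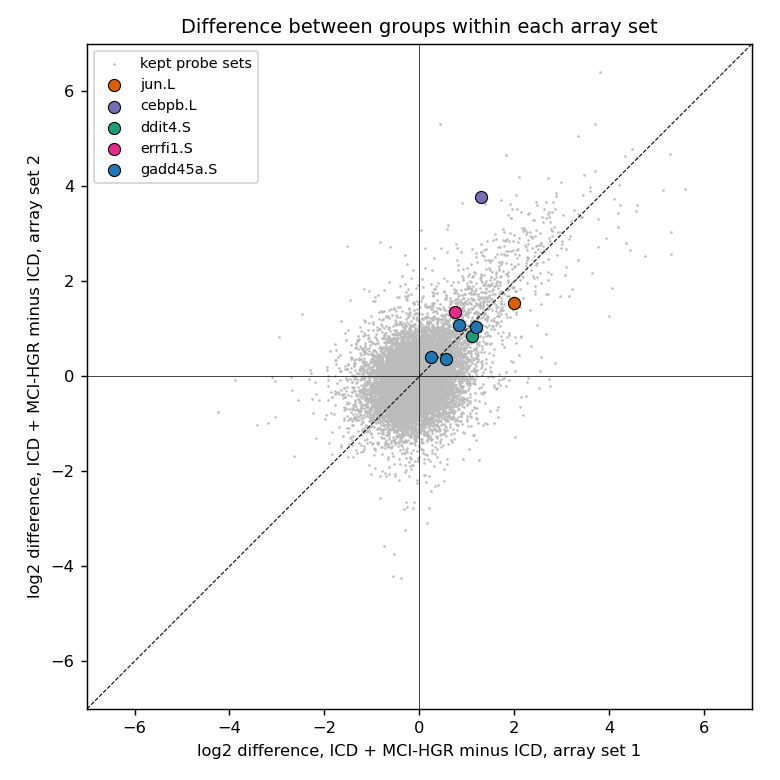
Log2 difference between groups (ICD with MCI-HGR minus ICD) in array set 1 against that in array set 2 for 24404 kept probe sets (grey; 2 lie outside the axes) and the 8 probe sets of the 5 genes (coloured). The 5 genes lie in the upper right quadrant, with cebpb.L farthest from the dashed line of equal difference, at 1.30 in set 1 and 3.78 in set 2.

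Array sets differed for several of these genes as well. The log2 difference of set 2 minus set 1, averaged over both groups, was -1.41 for cebpb.L and -1.097 for jun.L. It was 0.42 for ddit4.S and -0.042 for errfi1.S, which turned to 0.22 after quantile normalization and after median centring. Among the gadd45a.S probe sets it ran from -0.52 to 0.013; Xl2.29173.1.S1_at, at 0.013, turned to -0.17 after quantile normalization, and Xl2.1519.3.S1_s_at, at -0.095, turned to 0.17 after median centring. For jun.L, cebpb.L and ddit4.S the sign was the same in each group, whereas errfi1.S was lower in set 2 on the ICD arrays (-0.34) and higher on the MCI-HGR arrays (0.26). The cebpb.L difference was -2.65 on the ICD arrays and -0.16 on the MCI-HGR arrays.

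Set differences of this kind were common. In a limma fit with group and set, 15.8% of kept probe sets were higher and 24.6% lower in set 2 at an adjusted p of 0.05. The share of higher among all those called was 39.1%, and it was 49.6% after quantile normalization and 68.5% with arrays centred on their median. The fit without an intensity trend called 3122 probe sets in place of 9855. Markers of other cell types also went with the set, in both directions. The summed signal of 7 cement gland markers was 9491 and 6714 in set 1 and 20742 and 17774 in set 2, the ICD array first, and that of 7 mucus and small secretory cell markers 3584 and 3029 against 9342 and 9363. Both lists hold agr2.S and agr2.L, so these sums are not independent. agr2.S, which read 3144.2 and 2567.8 in set 1 and 7386.8 and 7849.2 in set 2, made up most of the mucus sums. Neural markers summed to 10574 and 8801 in set 1 and 4870 and 5360 in set 2. Of 13 neural markers, 9 were above the tag controls on all arrays. They did not move alike, as sox3.S and sox11.S, chosen after their values were seen, show. sox3.S read 3349.8 and 2519.4 in set 1 and 1197.5 and 1186.8 in set 2. sox11.S read 1724.3 and 876.2 in set 1 and 1831.8 and 1669.5 in set 2. Endoderm markers summed to 2121 and 1254 in set 1 and 495.3 and 553.8 in set 2. Of 15 endoderm markers, 7 were above the tag controls on all arrays. The vegt homeologs, chosen after their values were seen, made up most of the endoderm sums of set 1. vegt.S read 1221.2 and 626.8 in set 1 and 18.4 and 26.9 in set 2, and vegt.L 331.7 and 160.5 against 14.7 and 18. By contrast foxa2.L, chosen in the same way, read 186.9 and 131.4 in set 1 and 205.1 and 256.2 in set 2. The summed signal of 15 mesoderm and muscle markers, of which 9 were above the tag controls on all arrays, was 3143 and 3108 in set 1 and 1545 and 992 in set 2, the ICD array first. Its members did not move alike, as these genes, chosen after their values were seen, show. tbxt.S read 930.4 and 474.1 on the arrays of set 1 and 12 and 25.8 on those of set 2, and tbxt.L 668.9 and 273.1 against 13.2 and 22.2. szl.L was higher in set 2 with ICD alone (556.7 against 929.5) and lower there with MCI-HGR (1041.1 against 549.5). The part of such cells in the set differences was not tested.

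Other immediate early genes were called by set more often than by group, and the same held across all genes. Of 43 kept genes of that list besides jun.L, 22 were lower and 5 higher in set 2 by the fit with group and set (of all genes, 26.2% were lower and 18.7% higher). The counts were 18 and 5 after quantile normalization, 13 and 10 with arrays centred on their median, and 8 and 2 without an intensity trend. By group the fit with group and set called 6 of the list lower and 3 higher (of all genes, 2.56% and 5.74%). dusp1 and dusp6, which encode phosphatases that switch off MAP kinases, were chosen here after their values were seen. dusp1.S read 285.6 and 327.8 in set 1 and 99.2 and 102.2 in set 2, the ICD array first. Its homeolog dusp1.L went the other way, from 1638.7 and 1699.8 in set 1 to 2281.6 and 2232 in set 2. dusp6.S read 281.2 and 315.2 in set 1 and 81.7 and 98.9 in set 2. The log2 differences between groups were 0.12 for dusp1.S, 0.011 for dusp1.L and 0.22 for dusp6.S.

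**Figure D3:**
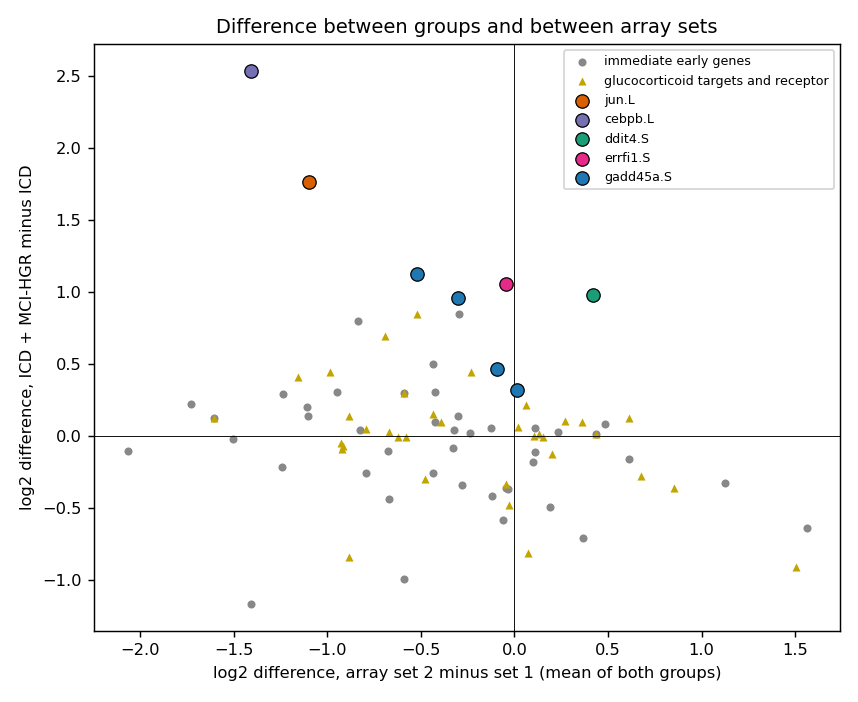
Log2 difference between groups (ICD with MCI-HGR minus ICD, vertical) against log2 difference between array sets (set 2 minus set 1, horizontal) for the 8 probe sets of the 5 genes and for 43 other immediate early genes and 35 other glucocorticoid genes. The 8 probe sets, of genes selected on the vertical difference, lie between 0.32 and 2.54 on that axis. Most genes of both lists lie near 0 on it and spread along the horizontal axis.

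The comparison of the groups asked which genes differed when MCI-HGR mRNA was given besides ICD mRNA, with dexamethasone in both groups. Across all 24404 kept probe sets, limma without a block called 0 (0%) at an adjusted p of 0.05. At an unadjusted p of 0.05 it put 2.92% higher and 0.508% lower (712 and 124 probe sets). A limma fit blocked on the array set called 4.68% higher and 2.26% lower (1142 and 551), and the same fit without an intensity trend called 0. On 1 simulated data set, false calls made up a larger share of the blocked fit's calls than the threshold of 0.05 allows. That data set held fewer changed probe sets than the blocked fit called here, and the share of false calls in the real data was not tested. Every call and adjusted p with the block given below is to be read with that limit. At 1 probe set per gene, the shares of 9380 genes were 3.69% and 0.458% at an unadjusted p of 0.05, and 5.74% and 2.56% with the block. At least 2-fold higher in both sets were 2.44% of genes. Both MCI-HGR arrays lay above both ICD arrays for 12.6% of genes and below for 9.52%, and the median log2 difference of all genes was 0.0065.

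The other copies of the 5 genes gave 1 measurement. errfi1.L was the sole one of the 5 other homeologs read by a probe set with 1 symbol. It gave signals of 42.9 and 35.7 in explants with ICD and 57.1 and 49.7 in those with MCI-HGR, 1.33-fold higher in set 1 and 1.39-fold in set 2. The log2 difference was 0.44 ± 0.17 (SE, n = 2 per group), and it did not pass by limma (adjusted p = 1, and 0.386 with the block). Whether the homeologs of errfi1 differ was not tested, and near-identical homeologs can share probes.

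Among the immediate early genes, jun.L stood beside relatives that went in both directions. Both MCI-HGR arrays lay above both ICD arrays for 2 of 43 genes and below for 9 (of all genes, 12.6% and 9.52%). With the block 3 were called higher and 6 lower (of all genes, 5.74% and 2.56%), and 0 passed without it. junb.S, another Jun protein of AP-1, read 70.4 and 45.1 with ICD alone and 34 and 23.5 with MCI-HGR, a log2 difference of -0.995 ± 0.42 (SE, n = 2 per group; limma, adjusted p = 1, and 0.0214 with the block). zfp36l2.S and zfp36l1.S, which encode proteins that destabilize AU-rich mRNAs, had log2 differences of -0.36 ± 0.072 and -0.42 ± 0.086. fos.S, the usual partner of c-Jun, was chosen after its values were seen and read 374.3 and 185.2 with ICD alone and 573 and 364.3 with MCI-HGR. It was 1.53-fold higher in set 1 and 1.97-fold in set 2, and its groups overlapped (limma, adjusted p = 1, and 0.000453 with the block). The list had a median log2 difference of -0.025, with -0.10 in set 1 and -0.025 in set 2. After quantile normalization with the block, 1 gene was called higher and 7 lower.

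The glucocorticoid list, which holds targets of the receptor, the receptor and its chaperones, had a median close to that of all genes. Of 48 genes with a probe set besides cebpb.L, ddit4.S and errfi1.S, 35 passed the filter. The groups did not overlap for 4 higher and 3 lower genes (of all genes, 12.6% and 9.52%). With the block 3 were called higher and 2 lower (1 and 2 after quantile normalization), against 5.74% and 2.56% of all genes. tsc22d3.L, which encodes GILZ, a leucine zipper protein induced by glucocorticoids in mammals, read 254.1 and 192.1 in the ICD group and 497.3 and 318.9 in the MCI-HGR group. That was 1.96-fold higher in set 1 and 1.66-fold in set 2, a log2 difference of 0.85 ± 0.38 (SE, n = 2 per group; limma, adjusted p = 1, and 0.000248 with the block). Its other homeolog tsc22d3.S, chosen after its values were seen, had a log2 difference of -0.09.

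Some classic targets of the receptor and the receptor genes are named here after their values were seen. The log2 difference was 0.046 for per1.L, a clock gene, and 0.12 and 0.011 for dusp1.S and dusp1.L. For nr3c1.L and nr3c1.S, the genes of the receptor itself, it was -0.48 and 0.025. None of these passed with or without the block. The others of the list called besides tsc22d3.L were called with the block alone, each with overlapping groups. Lower were per2.L, another clock gene, at -0.91 (limma, adjusted p = 0.0228), and nfkbia.L, an inhibitor of NF-kappaB, at -0.36 (0.0174). Higher were sgk1.L, a kinase of ion transport, at 0.45 (0.039, and 0.132 after quantile normalization), and tsc22d1.L at 0.30 (0.0362, and 0.1195 after quantile normalization). The homeolog nfkbia.S went the other way, at 0.21 without overlap of the groups, and sgk1.S was at 0.69 with overlap. Neither homeolog was called with the block. cebpd.S, a C/EBP gene of acute responses, read 32.5 and 21.1 in explants with ICD and 21.7 and 9.8 in those with MCI-HGR, with overlapping groups and a log2 difference of -0.84 ± 0.65 (SE, n = 2 per group). Its signal of 9.8 was close to the highest tag control of that array, at 9.2. igfbp1.L, which encodes a binding protein for insulin-like growth factors, read 14 and 14.4 on the ICD arrays; its 7.8 and 8.4 on the MCI-HGR arrays were not above the tag controls, so no fold is given. The median of the list was 0.012, with 0.034 in set 1 and 0.032 in set 2.

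**Figure D4:**
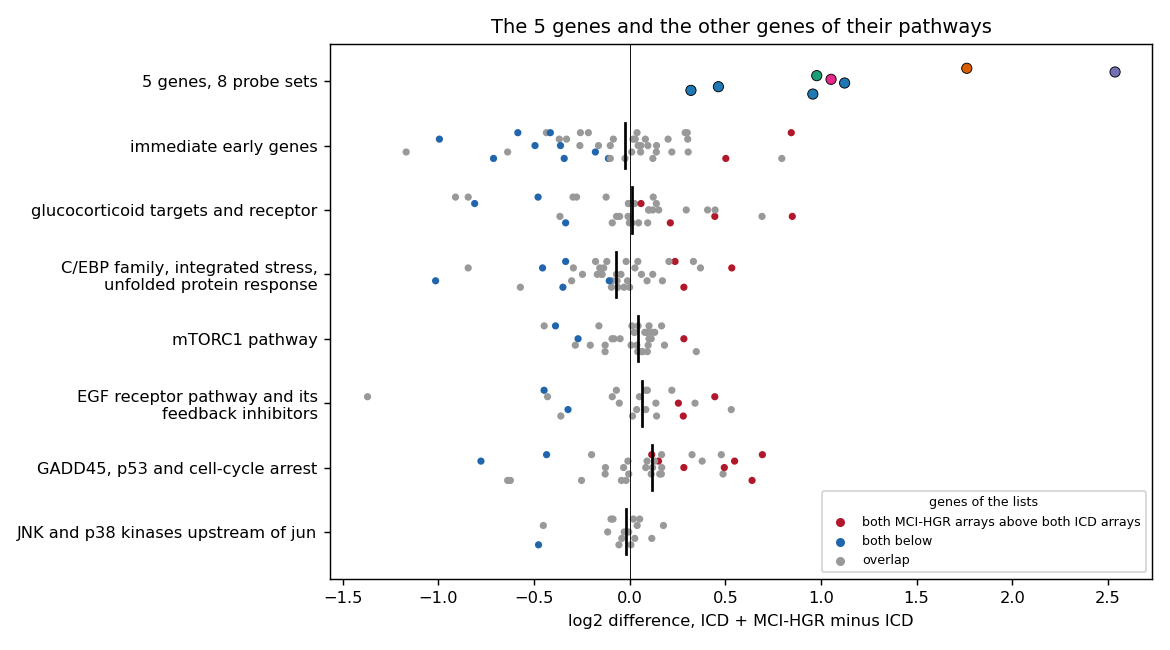
Log2 difference between groups (ICD with MCI-HGR minus ICD) for the 8 probe sets of the 5 genes (top row, coloured by gene) and for the kept genes of 7 lists without them; black bars are list medians, and red and blue points are genes whose groups do not overlap. The list medians lie between -0.069 and 0.12. The 8 probe sets, of genes selected on this difference, lie between 0.32 and 2.54.

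Each of the 7 list medians changed sign when 1 or another array was left out, with values from -0.36 to 0.26, so no direction is read from them. The list of the C/EBP family and of stress pathways had a median of -0.069 over 39 genes besides cebpb.L. None was called higher and 3 were called lower with the block (of all genes, 5.74% and 2.56%). The groups did not overlap for 3 higher and 5 lower genes (of all genes, 12.6% and 9.52%). cebpa.L, 1 of the C/EBP alpha homeologs, went against cebpb.L: it read 80.9 and 105.4 with ICD alone and 40.7 and 51.3 with MCI-HGR. It was 1.99-fold lower in set 1 and 2.05-fold lower in set 2 (limma, adjusted p = 1, and 0.00457 with the block). Its homeolog cebpa.S, chosen after its values were seen, had overlapping groups and a log2 difference of -0.030 (limma, adjusted p = 0.977 with the block). sdf2l1.L, a chaperone cofactor of the endoplasmic reticulum, had a log2 difference of -0.46 ± 0.081 (SE, n = 2 per group). ddit3.L and atf4.L, factors of the integrated stress response named after their values were seen, had log2 differences of -0.25 and 0.24.

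Of all genes, the block called 5.74% higher and 2.56% lower. The mTORC1 pathway, which DDIT4 restrains, gave no called gene with or without the block among 34 besides ddit4.S. Its median log2 difference was 0.043, and its values ran from -0.45 to 0.35. The groups did not overlap for 1 higher and 2 lower genes (of all genes, 12.6% and 9.52%). The 3 genes with the smallest p are given with log2 difference ± SE (n = 2 per group). tbc1d7.L, a subunit of the TSC complex that inhibits mTORC1, was at -0.39 ± 0.095. akt1s1.S, which encodes the mTORC1 inhibitor PRAS40, was at -0.27 ± 0.13. sesn2.S, a stress-induced inhibitor of mTORC1, was at 0.28 ± 0.13. The homeologs akt1s1.L and sesn2.L, named after their values were seen, had overlapping groups and log2 differences of 0.12 and 0.091.

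Around ERRFI1, the list of the EGF receptor pathway held 22 kept genes besides errfi1.S, with a median log2 difference of 0.067. Of the 22, 1 was called with the block, as lower (of all genes, 2.56% were). It was spry2.S, a Sprouty inhibitor of receptor signalling, named here for that call after its values were seen. It read 169.9 and 23.9 in the ICD group and 63.9 and 9.5 in the MCI-HGR group, 2.66-fold lower in set 1 and 2.52-fold lower in set 2 (limma, adjusted p = 1, and 0.00175 with the block). The groups of spry2.S overlapped, since the sets differed more than the groups. Its signal of 9.5 was close to the highest tag control of that array, at 9.2, which limits the fold in set 2. The other homeolog spry2.L, also named after its values were seen, had overlapping groups and a log2 difference of 0.083. The rule named shc1.L, an adaptor of the receptor, at -0.45 ± 0.055 and map2k1.L, the kinase MEK1, at 0.25 ± 0.055 (log2 difference ± SE, n = 2 per group). Neither passed with or without the block.

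The list of GADD45, p53 and cell-cycle arrest had the highest median of the 7, at 0.12 over 33 genes besides gadd45a.S. Its groups did not overlap for 7 higher and 2 lower genes (of all genes, 12.6% and 9.52%). With the block 3 genes were called higher and 4 lower (of all genes, 5.74% and 2.56%). Both proteins that GADD45A binds had a gene among those named by rule. pcna.S, the sliding clamp of DNA polymerase, read 1592.3 and 1936.9 in explants with ICD and 959 and 1093.9 in those with MCI-HGR, 1.66-fold lower in set 1 and 1.77-fold lower in set 2 (limma, adjusted p = 0.625, and 5.12e-06 with the block). cdk1.S, the mitotic kinase, went the other way, from 985.4 and 1114.9 to 1603.3 and 1465.5, a log2 difference of 0.55 ± 0.11 (limma, adjusted p = 1, and 0.000687 with the block).

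ccng2.S, an atypical cyclin linked to growth arrest, read 294.2 and 287.9 with ICD alone and 449.2 and 457.7 with MCI-HGR, 1.53-fold and 1.59-fold higher in the 2 sets. Its log2 difference was 0.64 ± 0.021 (SE, n = 2 per group; limma, adjusted p = 1, and 0.00169 with the block). The other homeolog ccng2.L, named after its values were seen, had overlapping groups and a log2 difference of 0.11. The relatives gadd45g.L and gadd45g.S, named after their values were seen, had log2 differences of 0.33 and -0.010. cdkn1a.L, which encodes the cell-cycle inhibitor p21, had one of 0.49. None of these 3 passed with the block.

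While the block called 5.74% of all genes higher and 2.56% lower, the last list gave none. That list holds JNK and p38 kinases, which phosphorylate c-Jun and related factors, together with their upstream kinases and other regulators. Of its 16 genes, 0 were called with or without the block. The median log2 difference was -0.017 and the values ran from -0.48 to 0.18. map2k4.S and map2k7.L, the kinases that activate JNK, had log2 differences of -0.48 ± 0.068 and -0.45 ± 0.45, and mapk12.S, a p38 kinase, one of 0.18 ± 0.36 (SE, n = 2 per group).

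Genes whose signals followed the 5 most closely were found by the Euclidean distance of log2 signals, each centred on its own mean over the 4 arrays. For ddit4.S these were ift20.S, of intraflagellar transport, at a distance of 0.0711, and ruvbl2.L, a subunit of chromatin and chaperone complexes, at 0.0943. ift20.S read 117.5 and 183.7 in the ICD group and 269.8 and 325.8 in the MCI-HGR group. For errfi1.S they were b9d2.L, of the ciliary transition zone, and rtn1.S, a reticulon of the endoplasmic reticulum, at 0.0661 and 0.0721. b9d2.L read 18.4 and 14.5 with ICD alone, where the tag controls reached 13 and 10, so its distance rests partly on signals near background.

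The brightest gadd45a.S probe set had sccpdh.2.L at 0.065 and the alpha-tubulin gene tuba4b.L at 0.0702. For jun.L the nearest were obi1.L, at 0.281, and ankrd37.L, at 0.336. obi1.L read 189.7 and 87.3 in explants with ICD and 822.5 and 312.1 in those with MCI-HGR. cebpb.L had no neighbour as close: cep41.L, of centrosomes and cilia, and tppp3.L, a microtubule-binding protein, lay at 1.02 and 1.06. tppp3.L read 13.1 and 5.9 with ICD alone, where the tag controls reached 13 and 10, so its distance rests on signals at or below background. cep41.L read 145.4 and 52.8 with ICD alone and 354.8 and 323.5 with MCI-HGR, with a low ICD array in set 2 as for cebpb.L. With 4 arrays these likenesses describe the pattern of these arrays only.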

How the data were processed

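The authors deposited MAS5 signal intensities, linear and 1 per probe set and array, per the submitters' processing notes; version and scaling target were not given in the sources used here. MAS5 handles each array alone, so distribution differences between arrays remain, and dim probe sets are imprecise. Here log2 was taken of 32539 probe sets (96 controls excluded) without further scaling. The dimmest 25% by mean log2 (up to a signal of 10.6 on the linear scale) were removed, leaving 24404. The platform annotation named 15495 probe sets with 1 symbol; 279 with several and 16765 without were not named. Symbols were checked in RefSeq v10.1.

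The main test was limma 3.58.1 (R 4.3.3) with group as the sole term, an intensity trend and two-sided p-values, adjusted by Benjamini-Hochberg over all kept probe sets at 0.05. A second fit added the array set as a block. Both were tested on 1 simulated data set, where false calls made up a larger share of the blocked fit's calls than the threshold allows. P-values reflect the spread of these 4 arrays alone, whose number limits the precision, and an exact permutation of 2 against 2 cannot go below 0.333.

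Lists used the brightest kept probe set of a gene. The 5 genes, 7 lists and 10 marker lists were chosen with earlier results of these data known. Named by rule were the 5 genes, their homeologs, the 3 genes per list with the smallest unadjusted p and the 2 nearest to each of the 5. Background was the highest of an array's 17 tag controls. Alternatives were quantile normalization, median centring, an offset of 16, other filters, no trend, the mean over a gene's probe sets and leaving out each array.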

Additional observations from a re-analysis of the deposited data

Results flagged for a closer look

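A probe set annotated to both jun.L and jun.S, which is not among the 8 and entered no gene list, carried a signal above the ICD arrays on both MCI-HGR arrays. It read 40.1 and 44.2 with ICD alone and 90.6 and 56.9 with MCI-HGR, a mean of 73.75 with MCI-HGR. It was 2.26-fold higher in array set 1 and 1.29-fold higher in set 2, against 3.96-fold and 2.91-fold for the probe set of jun.L alone. It was one of the 24404 kept probe sets of the group comparison and is set down because no described gene or list includes it; the difference between the probe sets was not tested. In 11.5% of all kept probe sets both MCI-HGR arrays lay above both ICD arrays. Groups of 2 arrays are too small for a test of single outlying arrays.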

How the results depend on the processing

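Without a block the group comparison called 0 probe sets, and 0 also under quantile normalization, median centring, the offset of 16, both other filters and no intensity trend. With 1 array left out, which assumes that a lone array varies like the other group, the count ran from 0 to 126 (126 without ICD replicate 1 and 82 without ICD replicate 2). With the replicate number as a block it was 1693, and 1508, 1554, 1979 and 1600 with quantile normalization, median centring, the offset or no filter added; without the intensity trend it was 0. Among these blocked settings, all but the plain one and quantile normalization were chosen after seeing the data, as were the further blocked settings of the lists, the settings of the list genes and of errfi1.L, and those of the set differences of the 5 genes. The labels do not pair the arrays: deviations from group means correlated at 0.745 between arrays of the same number, and 2 pairs are too few to settle it. In the lists the block called 9 immediate early genes (8, 9 and 12 with quantile normalization, median centring or the offset), 5 glucocorticoid genes (3, 5 and 5), 3 C/EBP and stress genes (3, 3 and 4), 1 EGF receptor gene (1, 1 and 1) and 7 GADD45 and p53 genes (7, 7 and 7), all against 0 without it. Those lists held 43, 35, 39, 22 and 33 kept genes, and of all genes the block called 5.74% higher and 2.56% lower. Without the intensity trend the block called 0 probe sets, and so none of these genes. The array set comparison called 9855 probe sets and 3122 without an intensity trend. mapk12.S had a log2 difference of 0.18, -0.18 when MCI-HGR replicate 1 was left out and 0.53 when replicate 2 of that group was. Low signals lie close to the tag controls, which limits their folds. This holds for errfi1.S and igfbp1.L, and for jun.L and cebpb.L on ICD replicate 2 (20.4 and 19.9). With the offset of 16 the log2 difference was 1.33 for jun.L, 2.10 for cebpb.L and 0.72 for errfi1.S. Without it these were 1.76, 2.54 and 1.05.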
